A study of Mus musculus with 8 samples.

Results

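The 10 genes described here are matrix metalloproteinases and their tissue inhibitors, Mmp8, Mmp9, Mmp12, Mmp13, Mmp14, Mmp2, Mmp10, Timp1, Timp2 and Timp3. They were chosen by symbol, and all 10 were found once each among the 32285 genes of the feature table. Their transcripts were counted in single cells of mouse tongue epithelium, taken 15 days after transgene induction. Counts are unique molecular identifiers (UMIs), each of which marks 1 captured RNA molecule at its 3' end.

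There were 4 genotypes with 2 libraries each. The normal condition, N, carried Krt14-CreERT/LSL-rtTA. Group E carried the same alleles with tetON_E6-E7, which encodes the E6 and E7 oncoproteins of human papillomavirus. Group Y carried tetON_YAP1S127A, a form of YAP that escapes inhibitory phosphorylation by the Hippo pathway, and EY carried both effector transgenes. By the methods of the study, all mice also carried tetON_H2B-GFP and were adult littermates given tamoxifen into the tongue and a doxycycline diet, N included. Induction depends on the Krt14 promoter, so that the transgenes are driven in basal epithelial cells and not in the infiltrating cells that share the libraries. The tissue was released with collagenase and dispase, then trypsin, and cells were sorted for viability alone, without selection for epithelium. The methods give 2 mice per genotype, while the label of N2 holds a pair of animal numbers and may stand for a pool. With 2 libraries per group, p-values measure only the spread between these libraries.

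Matrix metalloproteinases are zinc-dependent enzymes that are made as inactive proenzymes and cut collagens, gelatin, elastin and other proteins outside the cell. The TIMPs bind their active sites and block them, and Timp2 also takes part in the activation of pro-Mmp2 at the cell surface by Mmp14. In tumors of stratified epithelium, much of this enzyme supply is known to come from stromal and immune cells rather than from the keratinocytes. Neutrophils are known to store Mmp8 and Mmp9 in granules, and macrophages to secrete the elastase Mmp12.

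Of the 10 genes, 4 lie on chromosome 9 (GRCm38) within 296 kb, in the order Mmp13 (chr9:7272514-7283331), Mmp12 (chr9:7344381-7369499), Mmp10 (chr9:7502352-7510240) and Mmp8 (chr9:7558456-7568485), all on the plus strand. The other 6 are dispersed: Mmp9 on chromosome 2, Mmp2 on 8, Timp3 on 10, Timp2 on 11, Mmp14 on 14 and Timp1 on X. The 250 bases before the start site are shown for 4 genes, from RefSeq (GRCm38.p6), because Mmp8 gave the largest change below, Mmp12 and Mmp13 were the macrophage enzymes, and Timp1 was the 1 gene with a TEAD match. Capitals mark a match to the AP-1 site (TGAGTCA, or TGACTCA on the other strand) or to the site of TEAD, the DNA-binding partner of YAP (GGAATG, or CATTCC on the other strand). No match of one overlapped a match of the other. The windows are chr9:7558179-7558428 for Mmp8, chr9:7347124-7347373 for the downstream start site of Mmp12, chr9:7272264-7272513 for Mmp13 and chrX:20869916-20870165 for Timp1, all on the plus strand.
Mmp8 promoter: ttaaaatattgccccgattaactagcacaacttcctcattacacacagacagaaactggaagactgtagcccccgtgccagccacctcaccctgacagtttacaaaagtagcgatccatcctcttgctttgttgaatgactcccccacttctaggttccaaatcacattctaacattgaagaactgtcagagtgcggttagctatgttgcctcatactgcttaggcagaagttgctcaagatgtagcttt
Mmp12 promoter: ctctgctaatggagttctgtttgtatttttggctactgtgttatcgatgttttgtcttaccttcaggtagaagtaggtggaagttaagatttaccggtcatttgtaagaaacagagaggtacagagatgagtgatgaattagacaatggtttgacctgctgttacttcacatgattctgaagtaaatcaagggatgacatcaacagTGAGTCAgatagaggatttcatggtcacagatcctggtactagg
Mmp13 promoter: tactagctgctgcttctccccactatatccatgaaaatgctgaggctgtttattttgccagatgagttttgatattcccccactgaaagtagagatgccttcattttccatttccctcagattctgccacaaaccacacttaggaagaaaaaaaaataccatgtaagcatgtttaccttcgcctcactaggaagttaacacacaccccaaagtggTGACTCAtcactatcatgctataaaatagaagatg
Timp1 promoter: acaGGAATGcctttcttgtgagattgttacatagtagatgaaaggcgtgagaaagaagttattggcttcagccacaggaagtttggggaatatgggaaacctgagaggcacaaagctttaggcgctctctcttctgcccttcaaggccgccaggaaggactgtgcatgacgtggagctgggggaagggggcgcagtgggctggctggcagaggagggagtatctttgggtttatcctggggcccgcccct
Promoters were found for 8 of the 10 genes, 9 promoters in all, and Mmp2 and Mmp9 had no entry. An AP-1 match stood 63 bases before the start site of Mmp10, 44 bases before that of Mmp12 shown here and 35 bases before that of Mmp13, while 4.46% of all 32851 promoters held one. The window of the upstream start site of Mmp12, chr9:7344147-7344396, held no AP-1 or TEAD match. The TEAD match of Timp1 began 247 bases before the start site, and 12.6% of promoters held such letters. A match of letters is a description only.

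The libraries held 42550 cells and 46483469 to 102427359 UMIs each, with a median of 6240 to 11017 UMIs per cell. Any pair of libraries shared 2 to 19 cell barcodes, at most 0.393% of the smaller library. Under the study's limits on genes, UMIs and mitochondrial share 25199 cells remained, and cell classes were rebuilt by clustering without any Mmp or Timp gene. These gave 13550 epithelial-like, 2738 macrophage-like and 848 monocyte-like cells. Epithelial-like cells per library ran from 198 in EY1 and 467 in N2 to 4194 in E1. Neutrophils hold little RNA, so the 2393 neutrophil-like cells were taken with a minimum of 200 genes. Defining markers were highest in their own class for 11 of 11 neutrophil, 9 of 10 macrophage and 10 of 12 epithelial genes, but for only 4 of 8 monocyte genes, so that the last class is the least well marked. Yap1, which checks the labels, stood at 32.7 to 48.1 CPM in epithelial-like cells of N and E and at 168 to 459 CPM in those of Y and EY. In neutrophil-like cells Yap1 was at 0 to 3.62 CPM in N and E and at 13.3 to 27.3 CPM in Y and EY. The source of this RNA was not tested. CPM is the count of a gene per 1000000 UMIs of that class in that library. Since 1 UMI marks 1 molecule whatever the length of the gene, no length correction was made, and levels are compared within a gene.

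The source of each transcript was read from its UMIs over all libraries in cells with at least 200 genes. Neutrophil-like cells held 66.7% of the Mmp8 UMIs and 92.1% of those of Mmp9. Monocyte-like cells held a further 26.5% of Mmp8. The neutrophil share of Mmp8 ran from 33.3% in N1 to 71.4% in EY1, which gave 15808 of the 25940 Mmp8 UMIs. For Mmp12, 53.2% lay in macrophage-like and 39.7% in monocyte-like cells, and for Mmp13 these shares were 44.0% and 49.4%. The border between both classes moved with the limit on genes: with at least 1000 genes per cell, macrophage-like cells held 86.3% of Mmp12 and 72.2% of Mmp13. Epithelial-like cells held 86.5% of Mmp2, 90.2% of Timp3 and 49.7% of Mmp14. These shares follow the make-up of each library as well as the level per cell. The epithelial share of Mmp14 ran from 7.52% in EY1, where monocyte-like cells held 59.2%, to 85.6% in N1, and the neutrophil share of Mmp9 from 29.1% in N1, where macrophage-like cells held 41.9%, to 96.9% in EY1. With at least 1000 genes per cell, macrophage-like cells held 56.1% of the Mmp14 UMIs of EY1 and monocyte-like cells 33.9%. Timp1 was spread over monocyte-like (52.1%), fibroblast-like (17.7%) and epithelial-like (14.9%) cells, and Timp2 over macrophage-like (21.7%), neutrophil-like (20.1%) and fibroblast-like (19.8%) cells. Mmp10, a stromelysin, gave 24 UMIs in all, 9 of them in fibroblast-like cells, and could not be tested in any class. The plot of levels by class gives the level per UMI in each class, which can differ from the share: Mmp14 was at 205 to 341 CPM in macrophage-like and at 37.3 to 71.1 CPM in epithelial-like cells.

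**Figure D1:**
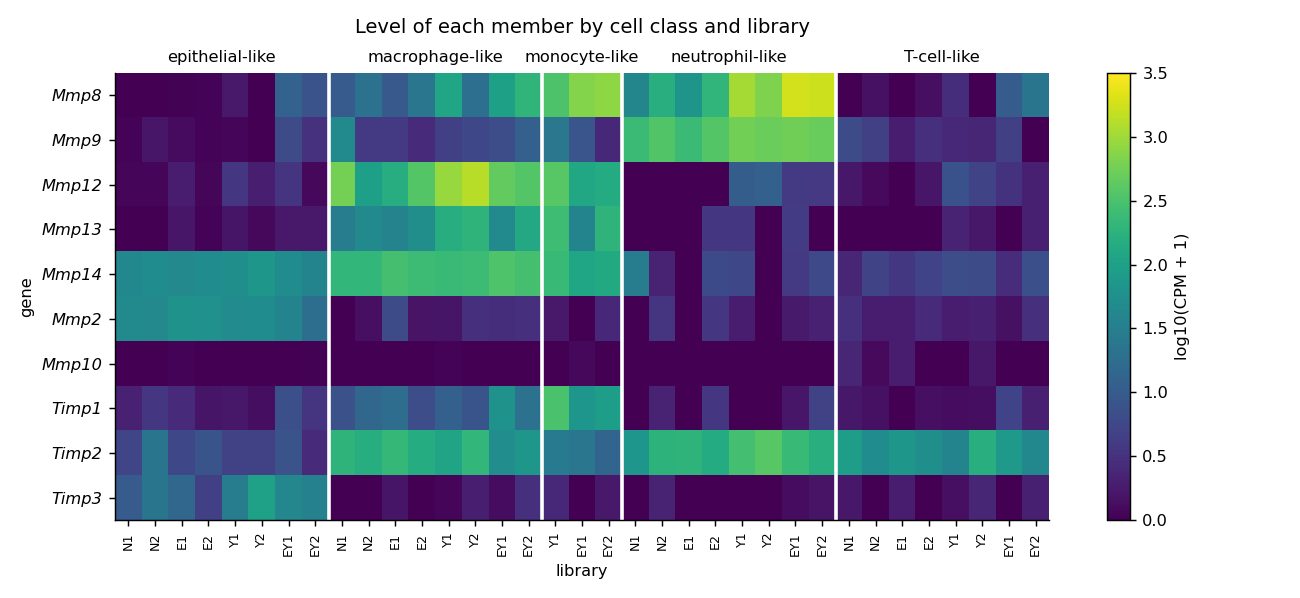
Level of the 10 genes, as log10(CPM + 1), in 5 cell classes, with 1 column for each library that held at least 20 cells of the class. Among these 5 classes, Mmp8 and Mmp9 are brightest in neutrophil-like cells, Mmp12 and Mmp13 in macrophage-like and monocyte-like cells, and Mmp2 and Timp3 in epithelial-like cells. Fibroblast-like cells, where Mmp2 was higher, are not shown. T-cell-like cells are shown as a class that should lack most of these enzymes.

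Within each class, UMIs were summed per library and tested across libraries with edgeR's quasi-likelihood test, with Benjamini-Hochberg adjustment over all genes of the class. The YAP effect compares Y and EY with N and E, and the E6-E7 effect compares E and EY with N and Y, each adjusted for the other transgene. The third comparison set EY directly against N. These comparisons share libraries and are not independent of each other.

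In neutrophil-like cells, the transcript of Mmp8, the neutrophil collagenase, rose with active YAP in the epithelium. Mmp8 stood at 39.1 and 162 CPM in N, 64.2 and 197 in E, 1076 and 654 in Y, and 1829 and 1729.9 in EY. The 4 values of Y and EY did not overlap with the 4 of N and E, all of which were lower. The YAP effect was 3.87 ± 0.50 on the log2 scale (SE, 8 libraries, adjusted p = 0.00123), and EY exceeded N by 4.63 ± 0.68 (adjusted p = 0.00473). After each cell was thinned to 1000 UMIs, 3.70 to 8.28% of neutrophil-like cells of N and E held an Mmp8 UMI, against 46.5 and 34.6% in Y and 76.2 and 76.9% in EY. The shares before thinning were 6.15 to 13.7%, 70.0 and 43.8%, and 92.4 and 92.0%, and thinning left out 11 to 42 shallower cells per library. In T-cell-like cells under the same gene limit, whose libraries had medians of 2255 to 8167 UMIs per cell against 1477 to 7684 in the neutrophil-like class, the thinned share was at most 1.81%.

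Mmp9, the gelatinase of neutrophils, moved the same way over a smaller range. Its level was 244 and 352 CPM in N, 239.6 and 364 in E, 574 and 496 in Y, and 557 and 489 in EY. The 4 libraries with YAP again lay above the other 4, and the YAP effect of 1.33 ± 0.28 (log2, SE) had an adjusted p of 0.00892. EY exceeded N by 1.45 ± 0.40 (adjusted p = 0.0401), a call that was lost without N1, N2, either Y library or either EY library (adjusted p 0.0537 to 0.210). In thinned cells, 19.4 to 30.5% held an Mmp9 UMI in N and E and 36.3 to 40.4% in Y and EY, against at most 0.208% of T-cell-like cells. Timp2 stood at 68.4 and 179.7 CPM in N, 188 and 142 in E, 288 and 393 in Y, and 224 and 162 in EY, so that the groups overlapped. Its YAP effect was 1.27 ± 0.35 (adjusted p = 0.0283), and its difference of 1.15 ± 0.46 between EY and N did not pass (adjusted p = 0.122).

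**Figure D2:**
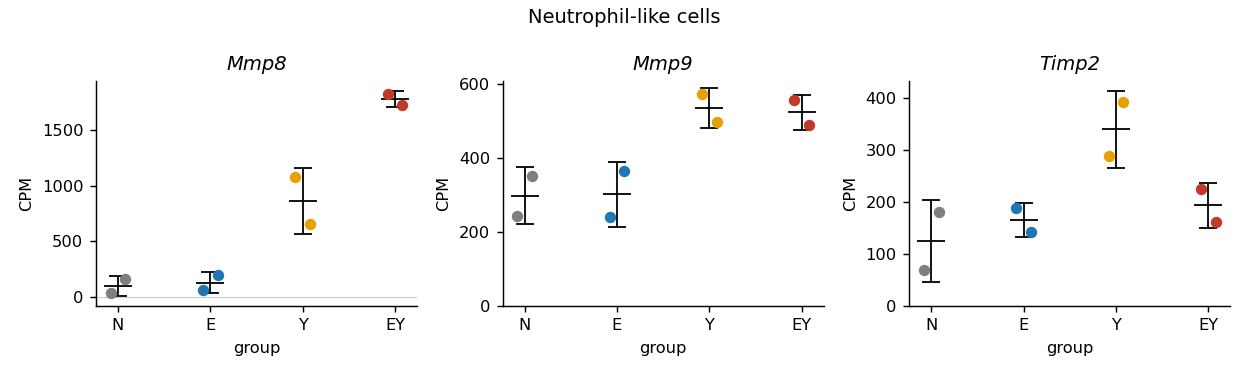
CPM of Mmp8, Mmp9 and Timp2 in neutrophil-like cells by group; each point is 1 library (2 per group), with the mean and SD of the group. For Mmp8 and Mmp9 every library of Y and EY lies above every library of N and E, whereas for Timp2 the lower EY library, at 162 CPM, lies within the range of N and E.

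Thus 3 of 3 genes tested in neutrophil-like cells passed for the YAP effect, all upward, beside 15.8% of the 4829 genes tested there in either direction. For EY against N, 2 of 3 passed, beside 11.3% of genes. For the E6-E7 effect 0 of the 3 passed (0 at an unadjusted p under 0.05 and 0 by DESeq2), and 0% of genes did so by edgeR, with 261 genes at an unadjusted p under 0.05 and 1 gene called by DESeq2. The other 7 genes were too low to be tested. Mmp12 was at 0 in all 4 libraries of N and E and at 2.76 to 10.9 CPM in Y and EY, at least 2.38-fold higher than the 1.92 CPM that 3 UMIs over the N and E libraries would give. The 10.9 CPM of Y2 came from 2 UMIs, and 13 of the 23 Mmp12 UMIs of Y1 came from 1 cell. In T-cell-like cells under the same gene limit Mmp12 was at 0 to 0.338 CPM in N and E. It was at 6.28 and 3.03 CPM there in Y and at 2.03 and 0.836 CPM in EY. The part of RNA from other cells in these levels was not tested. The neutrophil-like class held 1560956 UMIs in N and E against 10513301 in Y and EY. Mmp14 ranged from 0 to 29.3 CPM, where the highest value, in N1, came from 3 UMIs.

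The calls depended on the scaling, on single libraries and on the limit of genes per cell. The summed level of the 11 neutrophil markers was 52542 to 124672 CPM in N and E and 218657 to 372540 CPM in Y and EY, so that a few genes took a larger share of all UMIs in the latter. With library totals in place of TMM factors, the median of all genes moved from 0.01 to -0.52 on the log2 scale for the YAP effect, and genes called upward went from 370 of 764 called to 177 of 1261 called (for EY against N, from 255 of 545 to 121 of 989). Mmp8 was called with either scaling, whereas Mmp9 (0.80, adjusted p = 0.0560) and Timp2 (0.76, adjusted p = 0.134) were not called with library totals, nor with at least 1000 genes per cell. The Timp2 call was also lost without N1, E2, Y1 or EY1.

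The neutrophil-like class was composed of different cells in different groups. Of its 3 clusters, that led by G0s2, Hdc and Csf3r held 64 of 65 and 316 of 327 cells in N and 154 of 155 and 114 of 117 in E, but 13 of 446 and 11 of 64 in Y and 8 of 804 and 0 of 415 in EY. The other clusters, led by Retnlg and Ngp or by Ngp, Retnlg and Camp, held the remainder. Within the G0s2 and Hdc cluster, Mmp8 was 39.3 and 94.9 CPM in N and 65.0 and 63.9 CPM in E, against 108 and 183 CPM in Y and 194 CPM in EY1, the last 3 from 2 to 4 UMIs each. In the Retnlg and Ngp cluster it was 1091 and 709.7 CPM in Y and 1877 CPM in EY1, and the 5 cells of N2 found there gave 1098 CPM (exact Poisson 95% interval 839.6 to 1410, for counting error only). Those 5 cells gave 61 of the 134 Mmp8 UMIs of N2, and 1 cell gave 54 of the 78 of E2. In the third cluster, led by Ngp, Retnlg and Camp, Mmp8 was at 711 and 280 CPM in Y, the latter from 1 UMI, and at 1201 and 1718 CPM in EY, and the 6 cells of N2 there held 0 of 4679 UMIs (exact Poisson 95% interval up to 788 CPM). The ranges of the G0s2 and Hdc cluster and the Retnlg and Ngp cluster did not overlap over the libraries with at least 5 cells, and no test was made, since the clusters were built from these cells. The part of this change in cluster make-up in the YAP effect on Mmp8 was not tested. For Mmp9 the ranges of both clusters overlapped. The G0s2 and Hdc cluster stood at 243 to 346 CPM in N and E, at 323 and 611 CPM in Y (6 and 10 UMIs) and at 0 UMIs in the 8 cells of EY1, and the Retnlg and Ngp cluster at 558 CPM in N2, 581 and 477 in Y and 565 in EY1. Timp2 in the G0s2 and Hdc cluster was at 68.9 to 191 CPM in N and E. It was at 0 and 61.1 CPM there in Y and 48.4 CPM in EY1, from 0 to 1 UMI each. In the Retnlg and Ngp cluster Timp2 was at 144 CPM in N2, 293 and 422 in Y and 228 in EY1, without a test.

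**Figure D3:**
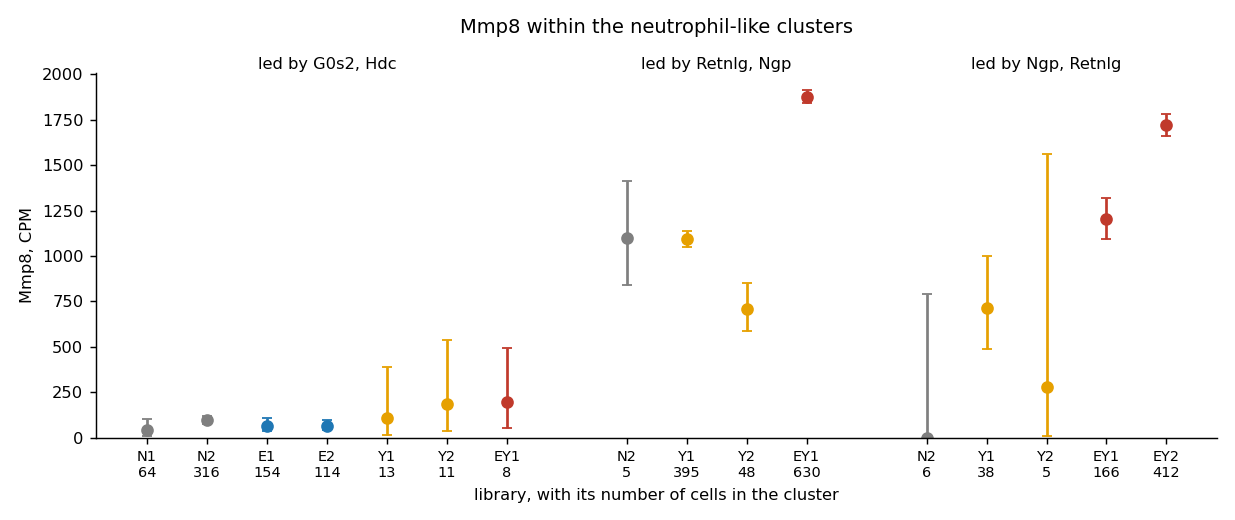
Mmp8 in each neutrophil-like cluster, in CPM, with 1 point per library that held at least 5 cells of the cluster and exact Poisson 95% intervals; the number of cells stands under each library name. All libraries of the G0s2 and Hdc cluster lie under 200 CPM, and those of the Retnlg and Ngp cluster lie at 709.7 CPM or above, N2 included, while N2 is at 0 in the third cluster.

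In macrophage-like cells no gene of the 10 passed in any comparison, although Mmp12 and Mmp13 were highest in Y. Mmp12, the macrophage elastase, stood at 588 and 94.7 CPM in N, 149.7 and 362 in E, 898 and 1347 in Y, and 449 and 369.9 in EY. Both Y libraries were the highest, while N1 lay above both EY libraries and N2 was the lowest of all 8. The YAP effect was 1.28 ± 0.51 (log2, SE, adjusted p = 0.236). The share of macrophage-like cells with an Mmp12 UMI, thinned to 1000 UMIs per cell, was 3.77 to 14.9% in N and E, 34.5 and 47.0% in Y, and 21.6 and 18.8% in EY (17.9 to 31.9%, 61.7 and 71.9%, and 43.3 and 37.2% before thinning), with at most 0.683% of thinned T-cell-like cells.

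Mmp13, an interstitial collagenase, was at 28.6 and 45.1 CPM in N, 35.2 and 52.0 in E, 151 and 186 in Y, and 44.2 and 127 in EY. Y lay above all other libraries, and EY1 lay within the range of N and E. Its YAP effect of 1.61 ± 0.36 had an adjusted p of 0.0557. Mmp14, the membrane-bound activator of pro-Mmp2, was the steadiest, at 206 and 205 CPM in N, 293 and 251 in E, 238 and 246 in Y, and 341 and 295 in EY. Every E and EY library stood above every N library, but neither the E6-E7 effect (0.43 ± 0.13, adjusted p = 0.321) nor EY against N (0.74 ± 0.19, adjusted p = 0.111) passed.

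Mmp8 in macrophage-like cells was at 9.09 and 19.4 CPM in N, 8.35 and 22.6 in E, 114 and 18.2 in Y, and 97.5 and 193 in EY (YAP effect 2.73 ± 0.61, adjusted p = 0.0573). It moved with the neutrophil markers, all 11 of which had UMIs in this class: their summed level was 87.0 to 347 CPM in N and E, 221 and 2399 CPM in Y, and 4495 and 5360 CPM in EY. Y1, EY1 and EY2 were the 3 highest libraries for both, though Mmp8 was highest in EY2 and the marker sum in EY1, and Y2 stood within the range of N and E for both. The part of neutrophil RNA in the Mmp8 level was not tested. Mmp9 was at 46.7 CPM in N1, of which 16 of 36 UMIs came from 1 cell, and at 1.58 to 10.9 CPM in the other 7 libraries.

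Among the inhibitors in macrophage-like cells, Timp2 was at 186 and 153 CPM in N, 217 and 144 in E, 108 and 209.96 in Y, and 50.9 and 70.6 in EY. Both EY libraries lay below the other 6. The difference between EY and N of -1.39 ± 0.36 (log2) did not pass over all genes (adjusted p = 0.110). Timp1 stood at 61.2 and 19.9 CPM in EY and at 5.78 to 16.7 CPM in the other 6 libraries, with a difference of 2.07 ± 0.61 between EY and N (adjusted p = 0.138). Timp3 and Mmp2 did not exceed 5.37 CPM and were not tested.

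**Figure D4:**
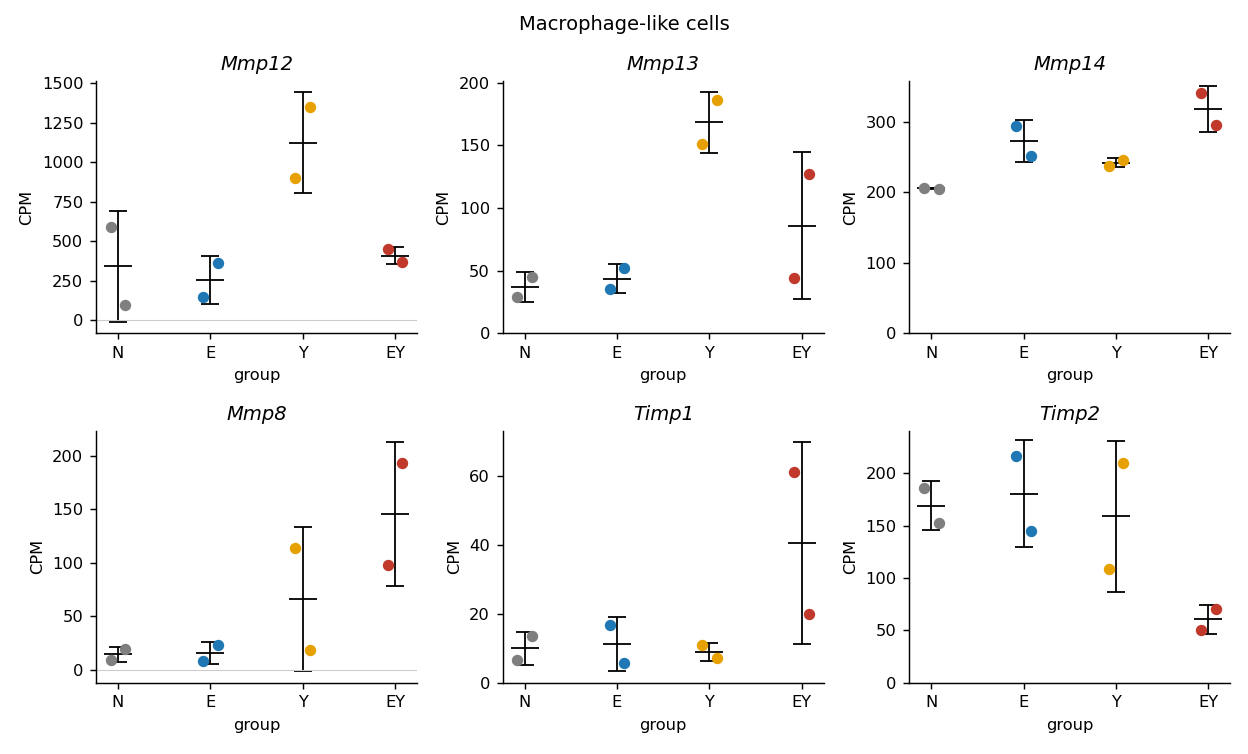
CPM of 6 genes in macrophage-like cells by group; each point is 1 library (2 per group), with the mean and SD of the group. Mmp12 and Mmp13 are highest in both Y libraries, Timp2 is lowest in both EY libraries at 50.9 and 70.6 CPM, and no gene passed the test over all genes.

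Of the 7 genes tested in macrophage-like cells, 0 were called for the YAP effect, beside 1.73% of 9530 genes, 0 for the E6-E7 effect, beside 0% of genes (962 at an unadjusted p under 0.05, and 111 called by DESeq2), and 0 for EY against N, beside 0.388% of genes. At an unadjusted p under 0.05 stood 5 of the 7 for the YAP effect, 2 for the E6-E7 effect and 5 for EY against N. DESeq2, which called 5.11%, 1.16% and 3.35% of all genes in these comparisons, called 2 for the YAP effect, Mmp13 (1.64) and Mmp8 (2.79), 0 for the E6-E7 effect, and 3 for EY against N, Mmp8 (3.44), Timp1 (2.09) and Timp2 (-1.38). The cells of this class also came from different clusters: that led by C1qa, C1qb and C1qc held 46 of 94 and 108 of 212 cells in N and 203 of 231 and 201 of 218 in EY, while most of the remaining N cells lay in a cluster led by Lyz2 and C1qb, and 241 of the 1248 cells of Y1 lay in one led by Spp1 and Arg1. Within the C1qa cluster alone, a restriction chosen after seeing the data, EY against N gave calls for 3 of 6 genes, beside 5.5% of 8583 genes: Timp1 (2.86, adjusted p = 0.0446), Timp2 (-1.76, adjusted p = 0.0213) and Mmp14 (0.80, adjusted p = 0.049996).

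Monocyte-like cells numbered 122 in Y1, 413 in EY1 and 272 in EY2, and at most 19 in every other library, so that only EY against the single Y1 library could be fitted, with 1 residual degree of freedom. Mmp8 was at 331 CPM in Y1 and 716 and 816 CPM in EY. Mmp12 was at 387 CPM in Y1 and 119 and 143 in EY, Timp1 at 309 and then 67.7 and 89.2, and Mmp13 at 257 and then 36.7 and 188. Of the 7 genes tested, 0 passed by edgeR or DESeq2 and 4 stood at an unadjusted p under 0.05 (for Timp1, -1.81 ± 0.39, adjusted p = 0.699), beside 0% of 7424 genes by edgeR, with 206 genes at an unadjusted p under 0.05 and 2 called by DESeq2. The neutrophil markers summed to 27262 CPM in Y1 and to 48238 and 51563 CPM in EY in this class, more than its own markers at 11611, 14945 and 22064 CPM, and their part in the Mmp8 level was not tested. The 15 cells of N2 and 19 cells of Y2 gave 1271 and 1158 CPM for Mmp12 and 25.4 and 342 CPM for Mmp8, as values without a test.

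When cells down to 200 genes were included, the monocyte-like class also took in cells led by Inhba and Arg1, and N2 and Y2 could enter the fit. That fit held N2, both Y and both EY libraries and no E library, with 2 residual degrees of freedom. Its E6-E7 effect therefore compares EY with Y alone. The Mmp12 UMIs of the class went from 509 to 6505 in Y1 and from 680 to 1475 in EY1. The part of this change in class make-up was not tested. The E6-E7 effect was then called for 3 of 7 genes, Mmp12 (-2.67 ± 0.33, adjusted p = 0.0282), Timp2 (-1.82 ± 0.29, adjusted p = 0.0429) and Mmp8 (1.91 ± 0.28, adjusted p = 0.0354), beside 0.573% of 9600 genes. N2 was the only library without YAP in that fit, so that its YAP effect and its comparison of EY with N rested on a single library and are not given.

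In epithelial-like cells, which carry the transgenes, the matrix enzymes were low and mostly did not pass the test. Mmp14 was at 41.6 and 49.3 CPM in N, 44.1 and 49.3 in E, 54.8 and 71.1 in Y, and 50.03 and 37.3 in EY, and its YAP effect was 0.25 ± 0.16 (adjusted p = 0.326). Mmp2, the gelatinase that it activates, was at 46.0 and 42.9 CPM in N, 59.4 and 58.0 in E, 48.4 and 48.7 in Y, and 36.3 and 17.7 in EY. Both EY libraries lay below the rest, and the difference between EY and N of -0.73 ± 0.28 did not pass (adjusted p = 0.122). With edgeR it was called with no filter on low counts (-0.78, adjusted p = 0.0319) and with no upper limits (-1.28, adjusted p = 0.00235). The same held without a cluster led by Wfdc18 and Psca, left out after seeing the data (-0.92, adjusted p = 0.0393). Over all genes, these settings called 2926, 5719 and 3248 in turn, against 1472 of 13909 in the reported fit. DESeq2 and the remaining processing settings did not call Mmp2.

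Timp3, the inhibitor that binds the extracellular matrix, was at 9.06 and 22.2 CPM in N, 13.5 and 3.61 in E, 29.6 and 99.0 in Y, and 41.0 and 33.8 in EY. All 4 libraries with YAP lay above all 4 without it, and the YAP effect of 2.13 ± 0.52 (log2, SE) did not pass the test by edgeR (adjusted p = 0.0567). It was called by DESeq2 (2.14, adjusted p = 0.000375). By edgeR it was called with no filter (2.09, adjusted p = 0.000232) or no upper limits (2.12, adjusted p = 0.0112), but not with RLE or library totals. Over all genes, DESeq2 called 2397, no filter 1921 and no upper limits 5991, against 638 of 13909 in the reported fit. A cluster led by Wfdc18 and Psca, which also had Dcpp1, a salivary gland gene, among its leading genes, held Timp3 at 189.6 CPM. Without that cluster, left out after seeing the data, N was at 6.40 and 0.234 CPM, E at 6.20 and 0.738, Y at 28.5 and 99.1, and EY at 34.2 and 33.3, and the YAP effect was called (3.64, adjusted p = 0.0227). That fit called 1637 of all genes. Timp2 was at 1.60 to 21.9 CPM in the whole class, where the highest value, in N2, dropped to 2.57 CPM without the same cluster. Timp1 stayed at or below 6.12 CPM.

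The 1 gene called in epithelial-like cells was Mmp8, at 0 in both N libraries, 0.0350 and 0.0802 CPM in E, 0.730 and 0 in Y, and 11.5 and 6.75 in EY. The fitted YAP effect of 7.47 ± 1.15 (adjusted p = 0.0155) depends on the small value added for libraries at 0, and the same holds for EY against N (adjusted p = 0.0325). Over the pooled libraries EY was at least 143-fold higher than the 0.0494 CPM that 3 UMIs would give in N. EY gave 293 of the 315 Mmp8 UMIs of the class. The gene therefore entered the test mainly through EY, and the call adds nothing to these counts. In T-cell-like cells, which should lack the enzyme, Mmp8 was at 9.496 CPM in EY1 and 21.7 CPM in EY2 and at or below 1.87 CPM in the other 6. The 11 neutrophil markers moved alike in both classes: in EY they summed to 1912 and 1424 CPM in epithelial-like and 1704 and 1665 CPM in T-cell-like cells. In the remaining libraries they summed to 41.1 to 247 CPM in epithelial-like cells, except 1337 CPM in N2, of which Ltf, a gene of gland as well as of neutrophils, gave 1243 CPM. Of the 315 Mmp8 UMIs of the class, 250 lay in 239 cells of a cluster led by Igkc, and without it EY against N was not called (adjusted p = 0.0664). That call was also lost without N1, N2, E1, E2 or EY2 (adjusted p 0.0607 to 0.151), and the YAP effect on Mmp8 without E1 (0.0906) or without E2 (0.0582).

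Mmp9, Mmp12 and Mmp13 did not exceed 5.40, 2.61 and 0.724 CPM in epithelial-like cells. For Mmp13, 24 of the 35 UMIs of E1 and 16 of the 28 of EY2 came from 1 cell each, and N was at 0 UMIs, so that EY was at least 14.7-fold higher (adjusted p = 0.0512, not called). For Mmp9, EY against N was not called by edgeR either (3.76 ± 1.27, adjusted p = 0.0919). DESeq2 called both Mmp9 (adjusted p = 0.0221) and Mmp13 (adjusted p = 0.0155). So did edgeR without the Wfdc18 and Psca cluster (adjusted p = 0.0484 and 0.0265). Over all genes, DESeq2 called 2553 and edgeR without that cluster 3248, against 1472 of 13909 in the reported fit. Without the Igkc cluster edgeR called neither. Of 9 genes tested in this class, 1 was called for the YAP effect, beside 4.59% of 13909 genes, 0 for the E6-E7 effect, beside 0.216% of genes (1 of the 9 at an unadjusted p under 0.05, and Mmp8 called by DESeq2, beside 1.62% of genes), and 1 for EY against N, beside 10.6% of genes.

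**Figure D5:**
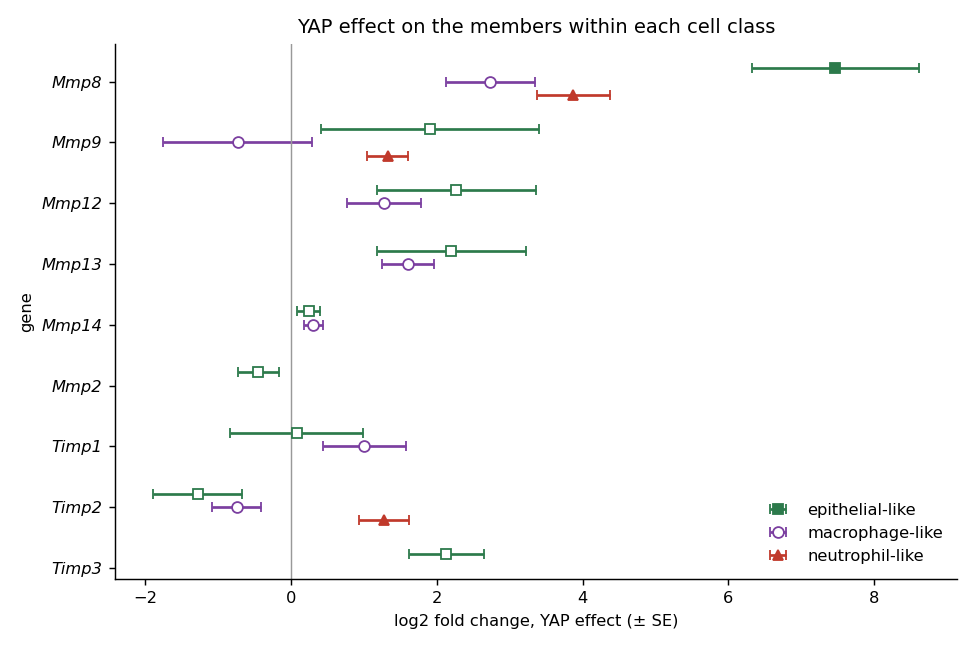
YAP effect on the log2 scale (± SE) for each gene tested in epithelial-like (squares), macrophage-like (circles) and neutrophil-like (triangles) cells; filled symbols passed an adjusted p of 0.05. Mmp8, Mmp9 and Timp2 are filled in neutrophil-like cells and Mmp8 alone in epithelial-like cells, where it stood at or below 11.5 CPM and its fitted value depends on libraries at 0.

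Whether YAP acted differently in the presence of E6-E7 was tested by an interaction term. No gene passed it in epithelial-like, macrophage-like or neutrophil-like cells by edgeR (at an unadjusted p under 0.05 there were 1269, 601 and 230 genes; DESeq2 was not run for this term). For Mmp8 in neutrophil-like cells the interaction was 1.007 ± 0.85 (log2, adjusted p = 0.962).

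Other genes of the pathway were counted in lists of other metalloproteinases (15 genes), other inhibitors (4), activators and partners (14), ADAM and ADAMTS proteases (12) and substrates (16). In neutrophil-like cells the YAP effect was called upward for 1 of 2 other metalloproteinases tested, 1 of 6 activators and partners, 2 of 5 ADAM proteases and 0 of 2 substrates, beside 7.66% of all genes called upward, and downward for 0 of these. Lcn2, the lipocalin that binds neutrophil gelatinase, was at 381 and 1976 CPM in N, 595 and 1221 in E, 8440 and 4853 in Y, and 12624 and 20545 in EY (3.86 ± 0.62, adjusted p = 0.00296). Mmp19 stood at 0 to 10.9 CPM in N and E and at 34.5 to 55.7 CPM in Y and EY (3.21 ± 0.56, adjusted p = 0.00412). Adam15 (2.39 ± 0.49, adjusted p = 0.00766) and Adam8 (1.12 ± 0.34, adjusted p = 0.0455), membrane proteases with a disintegrin domain, were the others. The clusters that made up this class differed between groups, as described for Mmp8, and their part in these calls was not tested. The calls of these list genes are given with TMM scaling alone.

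In epithelial-like cells the YAP effect was called downward for 1 of 7 other metalloproteinases and upward for 1 of 10 activators and partners, and for 0 of 10 ADAM proteases, 0 of 13 substrates and 0 of 1 inhibitor, beside 1.46% of all genes called downward and 3.13% called upward. The first was Mmp15, a membrane-bound enzyme related to Mmp14, at 13.2 and 20.2 CPM in N, 9.31 and 15.6 in E, 6.95 and 5.70 in Y, and 2.88 and 1.66 in EY (-1.86 ± 0.32, adjusted p = 0.0217). The second was Bsg, which encodes basigin, a surface protein known to induce metalloproteinases in neighbouring cells, at 287 to 319.8 CPM in N and E and 366 to 476 CPM in Y and EY (0.50 ± 0.11, adjusted p = 0.0463). EY against N was called upward for 2 of 10 activators and partners, beside 5.59% of all genes, and downward for 1 of 7 other metalloproteinases and 1 of 13 substrates, beside 4.99%. Besides Bsg and Mmp15, these were Plaur, the urokinase receptor (2.45 ± 0.55, adjusted p = 0.0403), and Col4a5, a basement membrane collagen chain (-4.01 ± 0.92, adjusted p = 0.0410). In macrophage-like cells 0 of 2 other metalloproteinases, 0 of 8 activators and partners, 0 of 6 ADAM proteases and 0 of 1 substrate were called in any comparison, by edgeR.

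Across 50 sums of a class and a library, the 3 genes of 14508 whose level followed Mmp8 most closely were Wfdc21 (Pearson's r of log2 CPM 0.97), Ifitm6 (0.94) and Lrg1 (0.94). Those closest to Mmp9 were Mrgpra2b (0.93), Mirt2 (0.92) and Mgam (0.91). Mmp12 was followed by Dpys, Pld4 and C1qb (0.93 to 0.94), Mmp13 by C3ar1, Mrc1 and Fn1 (0.91 to 0.94), and Timp1 by Raet1e, Ms4a8a and Tfec (0.86 to 0.87). These values describe points that share libraries and cell classes, and were not tested.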

How the data were processed

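Single-cell libraries of tongue epithelium were analysed for N, E, Y and EY, 2 libraries each. The deposited values were UMI counts per gene and cell, made by the authors with Cell Ranger and a prebuilt mouse reference (GRCm38). The labels name version 2 of the 3' kit and the methods a later one, so the kit is not certain. No normalized values were used, and counts were summed per library and class, at least 20 cells each. Cells were kept by the study's limits (1000 to 5500 genes, at most 30000 UMIs, at most 7% mitochondrial UMIs), and with at least 200 genes for neutrophils.

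Clusters were made with scanpy 1.11.5 and leidenalg 0.10.2 (3000 variable genes, 30 components, 50 neighbours, resolution 0.3), leaving out Mmp, Timp and list genes, and named from marker lists. The naming rule was revised after the marker tables of the clusters were seen. Scrublet marked 125 of 25199 cells, too few to count as a working doublet call, so doublets were not removed. Tests used edgeR 4.0.16 (quasi-likelihood, TMM, filterByExpr, adjusted p of 0.05), and DESeq2 1.42.0 as an alternative, in R 4.3.3, tested on simulated data. Other alternatives were RLE or library totals, no filter, other limits, resolution 1.0, removal of Scrublet calls, named clusters left out, and each library left out. Depth was a median of 6240 to 11017 UMIs per cell, and intervals cover counting error only.

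The 10 genes and the lists were chosen with earlier results of these data known. Every one of the 10 was described in each source; from the lists, at most 4 genes per direction past the threshold were named, where 1 group reached a mean of 10 CPM, and for likeness the 3 closest genes.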

Additional observations from a re-analysis of the deposited data

Results flagged for a closer look

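Mmp2 in epithelial-like cells moved in opposite directions with each transgene according to the presence of the other: the mean of 2 libraries was 44.5 CPM for N and 48.6 for Y, against 58.7 for E and 27.0 for EY. The interaction was -1.20 on the log2 scale by edgeR (adjusted p = 0.511), so that no difference between the effects passed the test.

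Timp1 in epithelial-like cells had means of 1.87 CPM for N and 0.515 for Y, against 1.14 for E and 4.26 for EY, so that the libraries with YAP lay lower without E6-E7 and higher with it (interaction 3.59, edgeR adjusted p = 0.493). These values are near the floor. Timp1 had 7 UMIs in E2, 18 in Y1, 7 in Y2 and 17 in EY1, the last from 6 of 198 cells.

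Mmp9 in macrophage-like cells had means of 24.9 CPM for N and 2.28 for E, against 4.15 for Y and 8.36 for EY (interaction 4.29, edgeR adjusted p = 0.648), and 16 of the 36 UMIs of N1 came from 1 cell.

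Mmp8 was present in T-cell-like cells of EY1 (9.496 CPM) and EY2 (21.7 CPM), above the levels of 0 and 0.442 CPM in N1 and N2. The 11 neutrophil markers in the same cells summed to 1704 and 1665 CPM in EY, against 71.6 to 89.3 CPM in N, and their part in the Mmp8 level was not tested.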

How the results depend on the processing

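Of 1064 alternative values for 64 log2 fold changes, 959 kept direction and side of the threshold, 25 lost a call, 63 gained one and 17 turned direction, 0 of them where the reported value was called. In neutrophil-like cells, 3 genes were called for the YAP effect, 1 with library totals, 1 with at least 1000 genes per cell, 4 of 9 tested with no filter and 2 to 3 with a library left out. For EY against N, 2 were called, 1 with library totals, no filter or at least 1000 genes, and 1 to 2 with a library left out. Mmp8 was called in all 16 alternatives of both. In epithelial-like cells, the YAP effect gave 1 call, 2 with DESeq2, no filter or without the Wfdc18 and Psca cluster, 5 without upper limits, and 0 to 2 with a library left out. The E6-E7 effect gave 0, and 1 with DESeq2 or no filter. EY against N gave 1, but 3 with DESeq2, 5 with no filter or no upper limits, 2 with at least 200 genes or resolution 1.0, 4 without the Wfdc18 and Psca cluster, 0 without the Igkc cluster and 0 to 2 with a library left out. In macrophage-like cells the YAP effect gave 0, but 2 with DESeq2, no upper limits or resolution 1.0, 5 with no filter and 0 to 3 with a library left out. The E6-E7 effect gave 0, and 4 with no filter. EY against N gave 0, but 3 with DESeq2 or the C1q cluster alone, 4 with no filter and 0 to 2 with a library left out. In monocyte-like cells the E6-E7 effect gave 0, 1 with no filter and 3 with at least 200 genes, and the YAP effect at resolution 1.0, where no N library had 20 cells, gave 0 of 7. No library could be left out there with a residual degree of freedom. These counts stand beside the calls over all genes given next. In epithelial-like cells with no upper limits, 5 genes described here were called for the YAP effect, beside 5991 of all genes. In the reported fit it was 1, beside 638. For EY against N it was 5 beside 5719 and 1 beside 1472. The causes of these differences were not tested.

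Counts over all genes moved by more than 1.5 times in several settings. The reported fits tested 13909 genes in epithelial-like, 9530 in macrophage-like, 7424 in monocyte-like and 4829 in neutrophil-like cells. In epithelial-like cells the YAP effect gave 638 calls, 2397 with DESeq2, 1921 with no filter, 5991 with no upper limits, 1637 without the Wfdc18 and Psca cluster, and 131 to 856 with a library left out. The E6-E7 effect gave 30, and in these settings 225, 261 and, without that cluster, 74, with 0 to 23 by library. EY against N gave 1472, and 2553, 2926, 5719 and 3248, with 0 to 3651 by library. In macrophage-like cells the YAP effect gave 165, but 487 with DESeq2, 1049 with no filter, 108 with at least 200 genes, 278 at resolution 1.0, 323 in the C1q cluster and 8 to 582 by library, and EY against N gave 37, then 319, 947, 61, 10, 472 and 0 to 308, with 9 without upper limits. The E6-E7 effect gave 0 there, but 111 with DESeq2, 504 with no filter, 32 with at least 200 genes, 4 in the C1q cluster, 1 without upper limits and 0 to 3 by library. In neutrophil-like cells the YAP effect gave 764, 1261 with library totals, 98 with at least 1000 genes and 348 to 960 by library, and EY against N gave 545, then 989, 141 and 116 to 664. The E6-E7 effect gave 0 there and 21 with no filter, and in monocyte-like cells 0, but 43 with no filter, 55 with at least 200 genes and 1 to 2 with RLE, DESeq2, Scrublet calls removed or no upper limits.

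Directions that turned, none called, are given as log2 fold changes with the range over libraries left out. In epithelial-like cells the E6-E7 effect ranged from -0.52 (without E1) to 1.48 for Mmp12, which was also at -0.04 without N1, -0.89 without the Igkc cluster and -1.21 without upper limits. It ranged from -0.41 to 0.0562 (without EY2) for Mmp2 and from -1.16 to 0.15 (without N2) for Timp2. EY against N ranged from -0.17 to 0.12 (without N2) for Mmp14, with 0.11 without EY2, and the YAP effect from -0.61 (without E2) to 0.71 for Timp1, with -0.38 without EY1 and -0.33 without E1. In macrophage-like cells Mmp9 turned without N1 in each comparison, and ranged from -1.25 to 1.27 for the YAP effect, -1.36 to 0.59 for the E6-E7 effect and -2.52 to 1.49 for EY against N. Mmp12 ranged from -0.43 (without N2) to 2.23 for EY against N. In neutrophil-like cells the E6-E7 effect on Mmp9 turned to -0.18 with at least 1000 genes and -0.0154 with library totals. No paired analysis was possible because the labels give no replicate number that groups share.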

Other observations

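Fibroblast-like cells, 2 to 31 per library, had the highest levels of Mmp2 of any class (404 to 1060 CPM) and held Timp2 at 495 to 2573 CPM and Mmp14 at 101 to 609 CPM. Mmp13 was at 1070 CPM in those of EY1, where all 36 UMIs came from 1 of 2 cells. Dendritic-like cells held Mmp12 at 447 CPM in Y2 and at 21.4 to 95.2 CPM in the other 7 libraries. In T-cell-like cells Timp2 ranged from 36.7 to 153 CPM, with the highest value in Y2.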
